A study of Drosophila melanogaster with 3 samples.

Results

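The 500 strongest binding sites of Blimp-1 in prepupae are the upper 10.0% of 4990 reproducible sites mapped by chromatin immunoprecipitation and sequencing (ChIP-seq). They were chosen by their signal: overlapping peaks of the authors' reproducible list on genome build dm6 were merged, each merged site kept the summit and signal of its strongest peak, and the 500 sites of highest signal were taken. The remaining 4490 sites served for comparison. All material was whole Drosophila melanogaster at the prepupal stage, both sexes pooled, of 1 transgenic line in which Blimp-1 carries green fluorescent protein (GFP) at its C terminus, and an antibody against GFP was used. There were 3 biological replicates of this 1 group, with no treatment, no second genotype and no control library analysed here, and the age in hours is not given. Neither the length of DNA in the transgene nor the state of the endogenous Blimp-1 gene is given in the sources used here. Because whole animals were used, sites from different tissues are joined in 1 map, and binding in few cells cannot be told apart from weak binding in many.

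Blimp-1 is a zinc finger transcriptional repressor. Its gene is switched on by the steroid hormone ecdysone, and the short life of its protein in the early prepupa is known to set when the nuclear receptor gene ftz-f1 is expressed. Its mammalian counterpart, PRDM1, was first described as PRDI-BF1, a repressor at the interferon beta promoter, and both proteins recognise sequences built around GAAAG. A repressor's ChIP-seq signal reports where the protein is cross-linked to DNA and does not by itself report whether a neighbouring gene is repressed.

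The following sequences show what lies under the summit at some of the strongest sites, since the closeness to the PRDI-BF1 consensus is one of the properties compared later. The first 6 are the stretches nearest to the 11-base consensus within 100 bp of the summit at sites ranked 1, 2, 3, 4, 8 and 10, and the next 5 are full matches at lower ranks. Capitals mark the 11 bases, and each stretch is printed 5′ to 3′ on the strand that holds the match.
Kdm2, rank 1, 1 mismatch: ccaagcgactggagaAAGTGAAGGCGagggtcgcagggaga
Blimp-1, rank 2, 2 mismatches: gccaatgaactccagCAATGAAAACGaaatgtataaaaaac
mol, rank 3, 1 mismatch: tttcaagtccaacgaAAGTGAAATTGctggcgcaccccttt
Blimp-1, rank 4, 3 mismatches: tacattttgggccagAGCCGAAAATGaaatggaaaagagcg
dyl, rank 8, 2 mismatches: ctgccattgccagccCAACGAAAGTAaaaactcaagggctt
Eip74EF, rank 10, 1 mismatch: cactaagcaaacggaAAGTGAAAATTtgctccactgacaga
Rilpl, rank 12, full match: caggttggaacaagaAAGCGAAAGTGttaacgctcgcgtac
ssp2, rank 15, full match: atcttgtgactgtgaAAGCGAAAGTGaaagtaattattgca
Atf3, rank 57, full match: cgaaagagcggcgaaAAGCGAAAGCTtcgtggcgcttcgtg
Gycalpha99B, rank 68, full match: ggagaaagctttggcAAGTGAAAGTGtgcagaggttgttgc
wake, rank 148, full match: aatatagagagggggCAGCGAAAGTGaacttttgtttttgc
On dm6 these stand at chr3R:9057695-9057735 (plus strand), chr3L:5627898-5627938 (plus), chr2L:14995736-14995776 (plus), chr3L:5622176-5622216 (plus), chr3L:4304407-4304447 (plus), chr3L:17577956-17577996 (minus), chrX:1399284-1399324 (plus), chr3L:13965103-13965143 (minus), chrX:1276616-1276656 (plus), chr3R:29682408-29682448 (minus) and chr3R:22667437-22667477 (plus). The letters were read from the RefSeq copy of the assembly and each stretch is named for the nearest protein-coding gene. The 2 sites shown for Blimp-1 hold nothing closer than 2 mismatches within 100 bp of the summit, although they rank 2 and 4. The full matches shown here lay from 11 to 26 bp from the summit.

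Longer stretches show how GAAAG and its reverse complement CTTTC, in capitals, stand at sites of 2 genes of the ecdysone cascade. Each covers 151 bp centred on the summit, on the plus strand.
ftz-f1, rank 20: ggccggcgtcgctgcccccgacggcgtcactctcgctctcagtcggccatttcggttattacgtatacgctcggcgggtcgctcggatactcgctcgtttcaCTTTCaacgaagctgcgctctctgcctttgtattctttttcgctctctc
Eip75B, rank 21: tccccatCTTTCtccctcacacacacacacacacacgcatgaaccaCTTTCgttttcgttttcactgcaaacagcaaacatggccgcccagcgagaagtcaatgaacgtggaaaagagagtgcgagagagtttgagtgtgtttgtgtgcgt
The first is at chr3L:18765804-18765954 and holds 1 copy, and the second is at chr3L:17968596-17968746 and holds 2 copies.

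The deposited signal, the peak caller's value for each peak in the pooled list, fell steeply within the strongest sites. It ran from 10091 at rank 1 to 1077 at rank 500, a ratio of 9.37, with a median of 1554. The other sites ran from 205 to 1076 with a median of 341. All 500 strongest sites therefore lay at or above 2.92 times the median of all sites, 178 of them reached 5 times that median, and together they held 34.5% of the signal summed over all sites. These values chose the sites and are given as a description, without a test. There was no gap at the limit: ranks 496 to 500, nearest to grh, Dok, mtg, pre-mod(mdg4)-E and sgg, had signals from 1079 down to 1077, and ranks 501 to 505, nearest to CG17104, CG5065, Tet, CG34193 and CG13258, from 1076 down to 1072.

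Strong sites were hardly wider than others but more often compound. Their median width was 482.5 bp against 470.0 bp, and 31.8% of them were merged from 2 or more overlapping peaks against 9.15% of the other sites. The −log10 q-value of the peaks was at its highest value of 3.96 for 100% of them and for 80.8% of the others, so it could not order them. Base composition at the summit differed as well, with a mean of 42.1% G or C in the 201 bp around the summit against 39.7%.

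Each replicate gave its own reading of these sites. Relative signal is the value of the strongest overlapping peak in a replicate divided by that replicate's median over all sites. Its median over the strongest sites was 4.09, 4.34 and 3.92 in replicates 1, 2 and 3, a mean of 4.12 ± 0.212 (SD, n = 3). The replicates thus placed the typical strong site at a similar height. They differed more in which sites were strong: 463 of the 500 were among the 500 strongest of replicate 1, 435 of replicate 2 and 372 of replicate 3 (84.7% ± 9.32, SD, n = 3). All 3 replicates put 304 sites among their own 500 strongest, exactly 2 did so for 163, exactly 1 for 32, and 1 site was in none of the 3 sets. Replicate 3 gave the lowest of the 3 values at 314 sites, replicate 2 at 143 and replicate 1 at 38, counted over the 495 sites with a peak in all 3. The pooled list was made from these same replicates, so these values describe the choice and do not test it.

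A reading that did not use the held-out replicate was obtained by ranking sites on the mean relative signal of the other 2 replicates. Of the 500 sites so ranked, 87.6% were also among the 500 strongest of replicate 1 when it was held out, 75.4% of replicate 2 and 67.6% of replicate 3. The mean was 76.9% ± 10.1 (SD, n = 3), against 10.0% of all sites that belong to any set of 500. In the held-out replicate their median relative signal was 4.34 ± 0.200 times that of the other sites (SD, n = 3). All 3 replicates lay on the same side, but with 3 values a two-sided exact test cannot go below 0.25, and the list of sites itself was drawn from all 3 replicates.

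Single sites departed from this agreement. Replicates 1 and 2 had a peak at every strong site, whereas replicate 3 had none at 5 of them, nearest to CenG1A (rank 122), Nulp1 (311), CG1827 (433), Dgp-1 (483) and pre-mod(mdg4)-E (499). At the CenG1A site, 112 bp upstream of a transcription start site (TSS), relative signal was 5.80 in replicate 1 and 5.36 in replicate 2. Among the other sites 584 of 4490 had no peak in replicate 3. The largest spread between replicates was at Pdss2, whose product joins in making the side chain of ubiquinone, with 2.72, 4.35 and 1.13 in replicates 1, 2 and 3 and a coefficient of variation of 59.0%. Next were CG11362 (58.8%), red (57.2%), Hsp23 (53.4%), which encodes a small heat shock protein, and CG2211 (52.1%). At all 5, replicate 2 was highest and replicate 3 lowest. The median coefficient of variation was 22.2% over the strongest sites and 26.1% over the others.

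**Figure D1:**
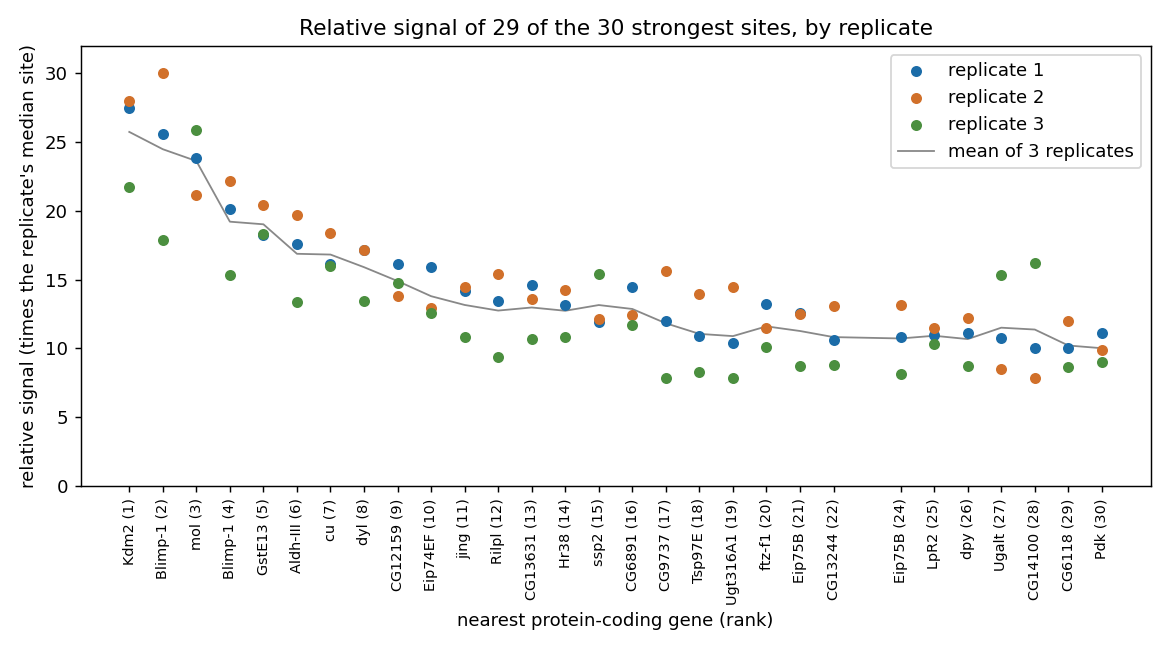
Relative signal (vertical axis, times the replicate's median over all sites) of the 30 strongest sites but 1, in order of rank, named by the nearest protein-coding gene; points are the 3 replicates and the line joins their means. Replicate 3 is the lowest point at most of these sites, and at Ugalt and CG14100 it is the highest.

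The 30 strongest sites lay nearest to 28 genes, and 15 of them were promoter sites, with a summit within 1000 bp of an annotated protein-coding TSS. Replicate 3 was lowest at 24 of the 30, yet no value of any replicate was under 7.80 times the median site. The first 10 were nearest to Kdm2, Blimp-1 (ranks 2 and 4), mol, GstE13, Aldh-III, cu, dyl, CG12159 and Eip74EF. Kdm2 encodes a histone lysine demethylase, and its intronic site read 27.5, 28.0 and 21.7 in replicates 1, 2 and 3. The intronic site of mol, which encodes a maturation factor for dual oxidase, read 23.8, 21.2 and 25.9, and was 1 of 4 sites among the 30 with their highest value in replicate 3.

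Ranks 11 to 20 joined transcription factors with enzymes and surface proteins. The site of jing, a zinc finger factor gene used in tracheal and glial development, lay 245 bp upstream of a TSS and read 14.1, 14.5 and 10.8 in replicates 1, 2 and 3. Rilpl encodes a RILP-like protein, a family tied to lysosome transport, and its intergenic site, 6235 bp downstream of the TSS, read 13.4, 15.4 and 9.36. The site of Hr38, a nuclear receptor gene of the NR4A family, stood 1626 bp upstream of a TSS and read 13.1, 14.2 and 10.8. Each of these 3 sites was highest in replicate 2 and lowest in replicate 3. The ssp2 site, 106 bp upstream of a TSS, went the other way with 11.9, 12.1 and 15.4. The promoter sites of Tsp97E, a tetraspanin gene, and Ugt316A1, a UDP-glycosyltransferase gene, had means of 11.0 ± 2.84 and 10.9 ± 3.37 (SD, n = 3), while those of CG6891 and CG9737 had 12.9 and 11.8 and the distal site of CG13631 had 13.0. The ftz-f1 site of rank 20, intronic and close to a start site inside the gene (135 bp upstream of it; chromosome 3L, 18765570 to 18766234), read 13.2, 11.5 and 10.1.

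Ranks 21 to 30 included structural and metabolic genes. The intronic site of dpy, which encodes a giant zona pellucida domain protein anchoring epidermis to cuticle, read 11.1, 12.2 and 8.68 in replicates 1, 2 and 3 on chromosome 2L from 4588588 to 4589308. LpR2 encodes a lipophorin receptor, and its site, 2226 bp downstream of a TSS, read 10.9, 11.4 and 10.3. That summit was in an exon outside coding sequence and UTRs, and the gene of the exon was not recorded. Pdk encodes pyruvate dehydrogenase kinase, and its 5′ UTR site read 11.1, 9.89 and 9.01. Ugalt, a nucleotide sugar transporter gene, read 10.7, 8.46 and 15.3 at a site 41 bp upstream of its TSS, and CG14100 read 10.1, 7.82 and 16.2. At these last 2 sites replicate 3 was well above both others. Sites nearest to Eip75B (ranks 21 and 24), CG13244 and CG6118 were also among these ranks, with means from 10.2 to 11.3.

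Most genes with a strong site had a single one, and a few had several. The 500 were nearest to 432 protein-coding genes, 15.2% of the 2850 genes nearest to any site. Of these 432, 390 had 1 strong site, 32 had 2, 4 had 3 and 6 had 4 or more. For 124 of the 500 (24.8%) another strong summit was within 10000 bp, while 15.9% of the other sites had a strong site that near. The median distance from a strong site to the next was 45.6 kb.

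Eip75B, a nuclear receptor gene induced early by ecdysone whose product binds heme, held the most. It was nearest to 11 strong sites of 29 sites in all, spread over 122 kb of chromosome 3L, with 9 of the 11 summits in introns and 3 of the 11 within 1000 bp of one of its TSSs. Their mean relative signals ran from 11.3 ± 2.21 at rank 21 to 2.85 ± 1.28 at rank 406 (SD, n = 3). Replicate 3 was the lowest at 10 of the 11, and highest at the site of rank 106, with 6.35, 6.15 and 6.71. At the weakest, rank 406, it stood at 1.57, against 2.86 and 4.13 in replicates 1 and 2.

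The ftz-f1 gene was nearest to 5 strong sites of 10, over 40.9 kb. The 3 strongest read 11.6 ± 1.60 (rank 20), 7.94 ± 1.16 (rank 54) and 7.64 ± 1.41 (rank 59), and the others 4.79 ± 1.26 and 3.57 ± 0.389 (SD, n = 3). Replicate 3 was the lowest of the 3 at each of them. Hr4, another nuclear receptor gene of the prepupal response, had 4 of 10 sites, all intronic on X over 24.6 kb, from 8.98 ± 1.83 down to 3.53 ± 0.358 (SD, n = 3). EcR, the ecdysone receptor gene, had 3 of 8, all intronic, of which the strongest read 6.42, 7.63 and 4.63.

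Strong sites also stood in a row upstream of Blimp-1 itself. Sites nearest to Blimp-1 numbered 11, of which 4 were strong, and sites nearest to the adjacent gene Eaf6, which encodes a subunit of a histone acetyltransferase complex, numbered 7, of which 5 were strong. These 9 lay between 5611407 and 5634608 of chromosome 3L, a span of 23.2 kb that includes the upstream end of Blimp-1, whose annotation runs from 5630983 to 5652094. They held 3.30% of the signal of the 500 sites. None of the 9 carried the consensus with at most 1 mismatch within 100 bp of its summit, although the sites themselves are wider. The line carries a Blimp-1 transgene, so extra copies of this DNA in the chromatin cannot be told apart from binding there. Without the 18 sites of both genes, the comparisons of position, consensus, GTGAAAG and GAGAGAG made between strong and other sites kept their direction and their side of the threshold, apart from the share on X, which did not differ either way.

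Outside the ecdysone genes, heca, which restricts the growth of imaginal and adult progenitor cells, had 5 strong sites of 13 over 17.4 kb, from 6.65 ± 0.453 to 3.17 ± 0.782 (SD, n = 3). The sites of for, which encodes a cGMP-dependent protein kinase, were few but mostly strong, 3 of 4. Tlk, a chromatin-linked kinase gene, had 3 of 14, and psq, which encodes a BTB domain protein of Polycomb and GAGA complexes, had 3 of 12, with a highest value of 6.45 ± 0.631 (SD, n = 3).

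**Figure D2:**
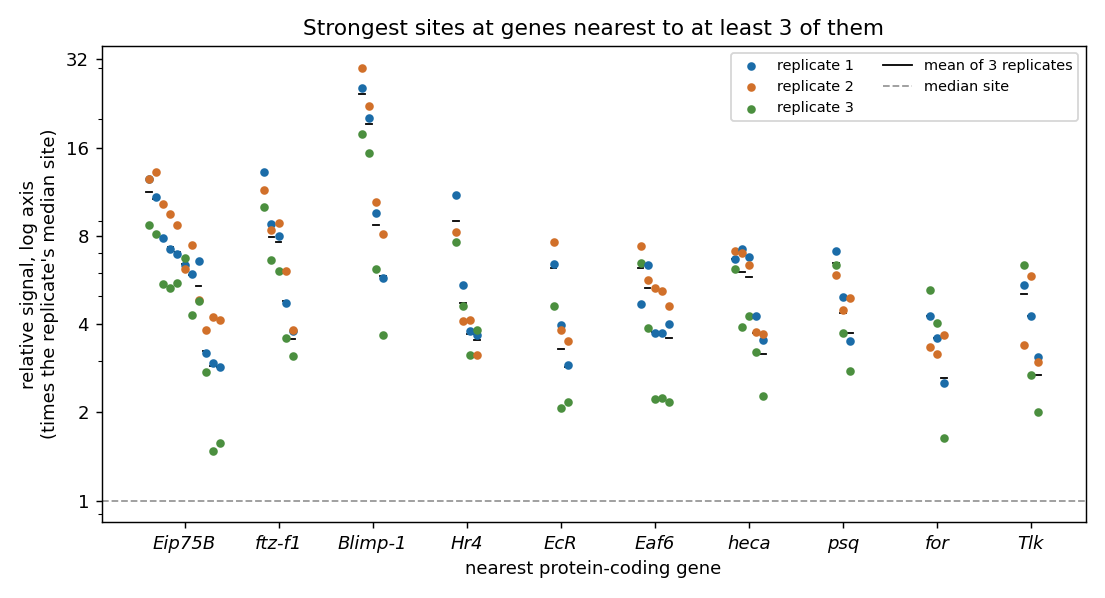
Relative signal (log axis, times the replicate's median site) of every strong site at the 10 genes nearest to at least 3 of them, sites in order of rank within a gene; points are replicates, bars their means, and the dashed line marks the median site. The 2 highest Blimp-1 sites stand above all others shown, and the green points of replicate 3 are below those of replicates 1 and 2 at most sites.

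Position differed between the 500 strongest sites and the 4490 others, but without a break at rank 500. Promoters held 280 of the 500 (56.0%, 95% Wilson interval 51.6 to 60.3) and 2023 of 4490 others (45.1%, interval 43.6 to 46.5). The odds ratio was 1.55 (adjusted p = 1.03e-05, two-sided Fisher's exact test, Benjamini-Hochberg over 3 classes). Distal sites were fewer to match: 30.6% lay in introns against 35.9% (odds ratio 0.787, adjusted p = 0.0204), and 10.2% in intergenic sequence against 15.5% (odds ratio 0.619, adjusted p = 0.00178; Fisher's exact tests). When each replicate alone ranked the sites, the promoter share of its 500 strongest was 56.2%, 54.6% and 57.4% in replicates 1, 2 and 3, which was 11.0 ± 1.56 percentage points above the rest (SD, n = 3). These tests count sites and not animals, and neighbouring sites can share a promoter.

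Within promoters the strong sites were nearer to the start. A share of 66.8% of the 280 strong promoter summits lay within 250 bp of a TSS against 56.9% of the 2023 others, with median distances of 172.5 and 205.0 bp. A 5′ UTR held 16.8% of strong summits and 9.53% of others. Upstream of the nearest TSS lay 63.2% of strong promoter summits and 65.7% of others. Starts of genes on both strands lay within 1000 bp of 27.5% and 26.7%. Far sites were rarer among the strong ones, 7.20% of which were over 10000 bp from any protein-coding TSS against 12.7%. These 5 shares are descriptions of the sites, without a test.

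Chromosome arms took similar shares. Arm 3L held 26.4% of strong and 22.8% of other sites (adjusted p = 0.368), and X held 16.8% and 16.9% (adjusted p = 1; Fisher's exact tests, Benjamini-Hochberg over 5 arms). No arm passed the threshold, and the 95% Wilson interval for the strong sites on X ran from 13.8 to 20.3%. Chromosome 4 had 11 sites, 0 of them strong.

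**Figure D3:**
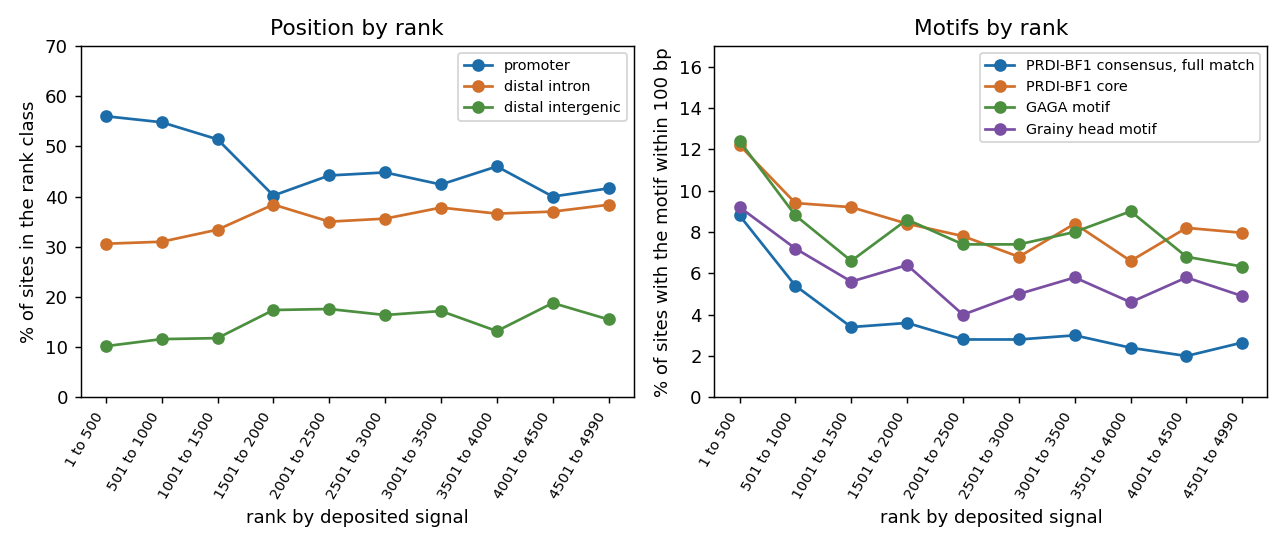
Shares of sites by position (left, percent) and with a motif within 100 bp of the summit (right, percent) in classes of 500 sites by rank, the last holding 490. Promoter shares are 56.0, 54.8 and 51.4% in the first 3 classes and at most 46.0% in the rest, and full matches to the consensus fall from 8.80% to 5.40% between the first and second class.

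Regulators of the ecdysone response had the largest share of strong sites among lists with at least 10 sites, a place they did not keep on replicate 3 alone. Of 115 sites nearest to one of 16 ecdysone regulators, 31 were strong (27.0%), against 10.0% of all sites. At least 1 strong site was at 9 of these 16 genes, and at 15.2% of the 2850 genes nearest to the 4990 sites. These 16 genes had more sites per gene than the 2850, and a gene with more sites has more occasions to hold a strong one. The gene shares were not adjusted for this, so they cannot be compared directly. The list holds the tagged gene Blimp-1, with 4 of the 31. Without the sites at Blimp-1 and Eaf6, 27 of 104 were strong, 2.63 times the share of all sites. Ranked on each replicate alone, the share was 29.6, 30.4 and 23.5% (27.8% ± 3.79, SD, n = 3). On replicate 3 the chromatin regulators, at 26.3%, stood above them and the zona pellucida genes, at 23.5%, beside them. These counts stand for no test, since the list was chosen with earlier results of these data known. Counted by a TSS within 1000 bp instead of the nearest gene, 4 of 24 sites were strong, 1.66 times the share of all sites in place of 2.69 times.

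The members of this list besides those described cover several roles. Eip74EF, an ETS factor gene of the early ecdysone response, had 1 strong site, with 15.9, 12.9 and 12.5 in replicates 1, 2 and 3. E23, an ABC transporter gene whose product dampens the ecdysone response, had an intronic site with 7.07, 7.01 and 5.21. tai, a coactivator gene of the ecdysone receptor, had a site 35041 bp from the nearest TSS with 3.09, 3.97 and 4.26. The tai site was highest in replicate 3, unlike those of Eip74EF and E23. None of the 21 sites at late ecdysone-responsive genes and none of the 8 at other nuclear receptors was strong, and the best ranked 556 and 673. With so few sites the upper 95% Wilson bounds, 15.5 and 32.4%, lie above the background of 10.0%. In the genes that make or break down ecdysteroids 2 of 13 sites were strong, both nearest to phtm, a biosynthetic cytochrome P450 gene, with means of 5.32 ± 0.682 and 2.77 ± 0.493 (SD, n = 3).

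Ribosomal protein genes had no site among the 500. Sites nearest to them numbered 61, all at promoters, and 0 were strong, with an upper 95% Wilson bound of 5.92%. The highest, at RpS27, ranked 515 with 3.32, 2.52 and 2.82 in replicates 1, 2 and 3, and the next, at RpL7, ranked 522. When each replicate alone ranked the sites, 3, 0 and 1 of the 61 were among its 500 strongest. With the limit set at the 1000 strongest sites, 9 of the 61 (14.8%) were included, against 20.04% of all sites. Their median signal of 407 was above the 341 of sites outside the 500. Of 68 sites within 1000 bp of a ribosomal protein TSS, 3 were strong, and each lay nearer to another gene, among them Mgat2 beside RpS28a (6.78 ± 1.78) and l(1)G0320 beside RpS28b (2.99 ± 0.239; SD, n = 3).

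Chromatin regulators had 11 strong sites of 57 (19.3%), at 8 of 20 genes. Beside Kdm2 and psq they included Trl, the gene of GAGA factor, with 5.84, 4.67 and 7.07 in replicates 1, 2 and 3, and osa, a gene of the Brahma chromatin remodelling complex, with 5.11, 5.12 and 6.82. Of the Polycomb genes, ph-p had 2 sites, of which the stronger read 4.91, 2.90 and 6.99, ph-d had 1 and Psc had 1. The Brahma ATPase gene brm had 1, with 2.61, 2.39 and 4.32. The Trl, osa, ph-p and brm sites were all highest in replicate 3, and the share of the list was 17.5, 15.8 and 26.3% when replicates 1, 2 and 3 alone ranked the sites.

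Genes for detoxification and redox had 8 strong sites of 48 (16.7%), 4 of them among the 20 strongest: mol, GstE13, Aldh-III and Ugt316A1. The GstE13 site, 5 bp downstream of the TSS of this glutathione S-transferase gene, read 18.3, 20.5 and 18.3 in replicates 1, 2 and 3. The other 4 were weaker, at Prx3, Cat, Ugt36D1 and Ugt305A1, with means from 2.68 to 3.13. At Cat, the catalase gene, replicate 3 was at 1.20 while replicates 1 and 2 were at 3.91 and 3.66.

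Stress genes had 6 of 31 (19.4%), each at a different gene. Atf3, a bZIP factor gene, had the strongest at 9.29, 8.22 and 5.79 in replicates 1, 2 and 3, followed by Hsp27, a small heat shock protein gene, at 6.28, 5.87 and 8.08. The p38a, kay, Hsp23 and Hsp83 sites had means from 2.71 to 3.82.

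Genes for the outer surface and for lipids had few strong sites, some of them high. The zona pellucida genes of the apical matrix had 3 of 17, in which dyl had 2 and dpy 1. The upper dyl site, ranked 8, read 17.2, 17.1 and 13.4 in replicates 1, 2 and 3, and its promoter site at rank 129 read 5.33, 7.02 and 4.55. Cuticle proteins had 3 of 29, near the background of 10.0%, at TwdlT, Cpr50Ca and Cpr65Aw, and genes of chitin and tanning had 2 of 19, at Cht7, a chitinase gene, and verm, a chitin deacetylase gene. Fat body and lipid storage genes had 3 of 13: 2 at Lpin, the lipin phosphatase gene (6.33 ± 0.465 and 4.57 ± 1.52), and 1 at mdy, a diacylglycerol acyltransferase gene (4.29 ± 1.56; SD, n = 3).

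The EGF receptor, BMP and clock lists stood near the background of 10.0%. The EGF receptor pathway had 5 of 44 (11.4%), at drk, the adaptor gene (7.68 ± 1.07), pnt, the ETS effector gene (4.92 ± 2.26), Raf with 2 sites and spi, a ligand gene. The BMP pathway had 4 of 39 (10.3%), at tld, shn, dally and wit, none above 3.11 in the mean, and the circadian clock genes had 4 of 30 (13.3%), with 2 at vri, a bZIP repressor gene. Cytoskeleton and adhesion genes had 3 of 35, including 2 at scb, an integrin gene, and 1 at Act88F, the flight muscle actin gene (6.69 ± 2.44, SD, n = 3). Chemoreceptor genes had 4 of 16 (25%), but 2, 2 and 3 when replicates 1, 2 and 3 alone ranked the sites. Of the 4, the 2 nearest to Or67d lay 57389 and 55582 bp from its TSS, in introns whose gene was not recorded. Gr93d and Ir52a had 1 each.

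Of the remaining lists, some had no strong site and others 1 or 2. The Wingless and Hedgehog pathways had 0 of 30, the Hippo and Fat-Dachsous pathway 0 of 27, Hox genes 0 of 10, basement membrane genes 0 of 10, and the proteasome 0 of 1. Disc patterning factors had 1 of 55 (bab1), the Notch pathway 1 of 32 (numb), insulin and growth genes 2 of 31 (Ilp8 and REPTOR), trachea genes 2 of 25 (crb and grh), death and autophagy genes 2 of 21 (Atg3 and hid), tetraspanins 2 of 11 (18.2%), the JAK-STAT pathway 1 of 7 (upd3) and odorant binding proteins 1 of 6 (Obp56i). Markers of single tissues gave 1 of 15 for muscle (Mef2, 6.19 ± 0.283), 1 of 11 for hemocytes (drpr, 4.06 ± 1.57) and 1 of 2 for neurons (elav, 3.43 ± 0.647; SD, n = 3). Ranked on replicate 3 alone, 4 of 32 Notch sites and 2 of 27 Hippo and Fat-Dachsous sites were among its 500 strongest. On replicates 1 and 2 alone both lists had 0. In all, 104 of the 500 strong sites lay nearest to a gene of any of the 33 lists.

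**Figure D4:**
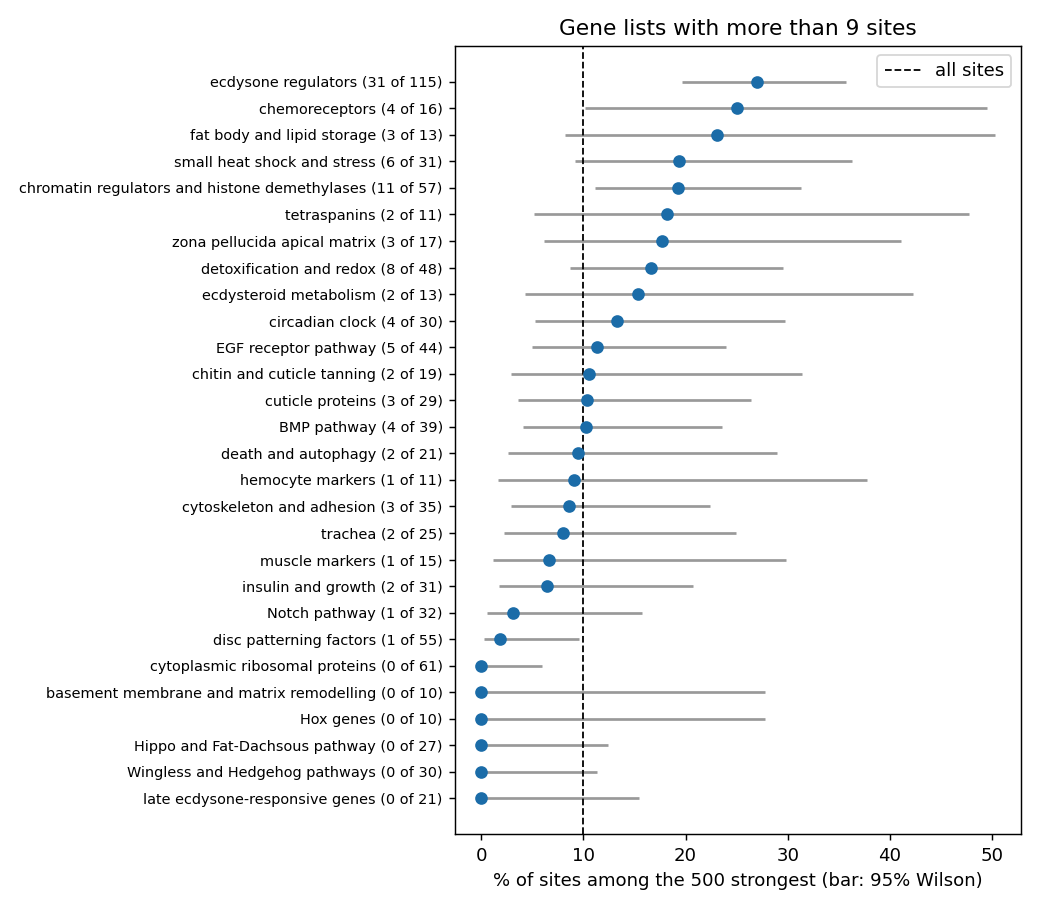
Percent of each list's sites that are among the 500 strongest (points) with 95% Wilson intervals, which cover counting alone, for lists with at least 10 sites; the dashed line marks the 10.0% of all sites, and the counts stand beside each name. Ecdysone regulators are at 27.0% and cytoplasmic ribosomal proteins at 0%.

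The recognition sequence of Blimp-1 was more frequent at the strongest sites. A full match to the PRDI-BF1 consensus stood no more than 100 bp from the summit at 44 of 500 (8.80%) against 140 of 4490 others (3.12%), an odds ratio of 3.00 (adjusted p = 1.89e-07, Fisher's exact test). A match with at most 1 mismatch was at 37.8% against 20.4%, an odds ratio of 2.38 (adjusted p = 6.96e-16, Fisher's exact test). GTGAAAG, 1 form of the core of the consensus, was at 12.2% against 8.08% (odds ratio 1.58, adjusted p = 0.00886), and GAAAG at 66.6% against 54.1% (odds ratio 1.69, adjusted p = 4.63e-07; Fisher's exact tests, Benjamini-Hochberg over 18 motif tests, both strands searched). Every full match to the consensus contains GAAAG and some contain GTGAAAG, so these tests overlap.

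These differences leaned on replicates 1 and 2. With sites ranked on 1 replicate alone, GAAAG was at 67.2% of the 500 strongest in replicate 1 and 71.6% in replicate 2, but at 55.2% in replicate 3, where the rest had 55.4%. The full consensus was at 9.20, 10.0 and 5.80% of the 500 strongest, against 3.07, 2.98 and 3.45% of the rest, and in replicate 3 its adjusted p was 0.107 (Fisher's exact test). GTGAAAG was at 12.4, 13.6 and 8.80% against 8.06, 7.93 and 8.46%. Its call was lost when the ranking left out replicate 1 (odds ratio 1.35, adjusted p = 0.187) or replicate 2 (odds ratio 1.28, adjusted p = 0.391; Fisher's exact tests). These rankings used mean relative signal in place of the pooled signal. Over all 3 replicates that measure gave GTGAAAG an odds ratio of 1.48 (adjusted p = 0.0398, Fisher's exact test). The match with at most 1 mismatch was more frequent among the strongest sites in all 3, at 39.2, 43.4 and 28.4% against 20.2, 19.7 and 21.4%. The reason for the lower shares in replicate 3 was not tested.

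Among the strong sites themselves, the loose match was more frequent in the upper classes than in the lower, while the full match was spread evenly. In classes of 100 from the top, 52, 49, 35, 23 and 30 sites had a match with at most 1 mismatch, and 10, 10, 7, 8 and 9 had a full match. Sites with the loose match had a median signal of 1829, and those without it 1447. With a full match the median was 1534 and without it 1558. A full match stood at 3 of the sites ranked 1 to 30.

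The matches sat close to the summits. Full matches lay at a median of 19 bp from the summit, and 26 of 44 were within 25 bp. In windows centred 500 bp away at the same sites, the full consensus was at 0.80%, a ratio of 11.0 (adjusted p = 2.77e-09), the loose match at 6.40% (ratio 5.91, adjusted p = 8.51e-35), and GTGAAAG at 4.0% (ratio 3.05, adjusted p = 1.37e-05; exact McNemar tests, Benjamini-Hochberg over 18). At the other sites the same ratios were 8.75, 3.17 and 3.13. Strong distal sites had a full match at 7.73% and strong promoter sites at 9.64%, a difference that was not detected (adjusted p = 0.769, Fisher's exact test over 6 motifs).

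**Figure D5:**
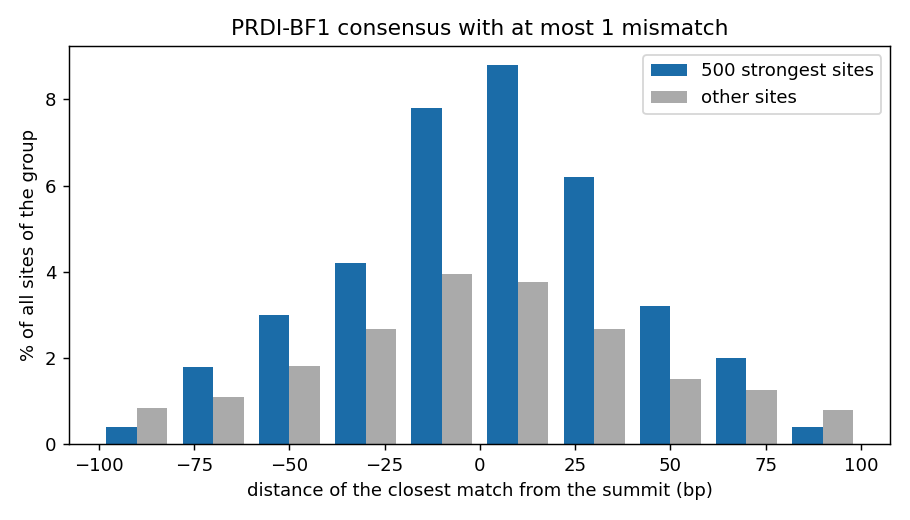
Distance in bp (horizontal axis, bins of 20 bp) from the summit to the closest PRDI-BF1 match with at most 1 mismatch, as percent of the 500 strongest sites (blue) and of the other sites (grey). The 2 bins beside the summit hold 7.80 and 8.80% of the strongest sites and 3.94 and 3.76% of the others.

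Sequences of 2 other factors were more frequent as well. GAGAGAG, the motif of GAGA factor, was at 12.4% of strong and 7.66% of other sites (odds ratio 1.71, adjusted p = 0.00234), and AACNGGTT, the motif of Grainy head, an epidermal transcription factor, at 9.20% and 5.48% (odds ratio 1.75, adjusted p = 0.00612; Fisher's exact tests). At strong sites both were more frequent at the summit than 500 bp away, 2.21 and 2.88 times (adjusted p = 0.000951 and 0.000484, exact McNemar tests). The ratios at the other sites were 1.81 and 1.49, without a test. GAGAGAG was at 33 of 220 strong distal sites against 5.96% of other distal sites, and at 10.4% of strong against 9.74% of other promoter sites. The 2 odds ratios, 2.79 and 1.07, differed (adjusted p = 0.00606, likelihood ratio test of the interaction in a logistic model, n = 4990 sites, over 5 motifs, added after the data were seen). For the 4 other patterns so tested (the consensus, GTGAAAG, the shorter GAAAG and the Grainy head motif), adjusted p of the interaction ranged from 0.391 to 0.949 (n = 4990 sites, likelihood ratio tests). The GAGAGAG call was lost when the ranking left out replicate 2 (odds ratio 1.46, adjusted p = 0.0710), and the AACNGGTT call when it left out replicate 1 (1.42, adjusted p = 0.187) or replicate 2 (1.28, adjusted p = 0.572; Fisher's exact tests). These rankings used mean relative signal. Over all 3 replicates that measure gave odds ratios of 1.71 and 1.56 (adjusted p = 0.00234 and 0.0462, Fisher's exact tests). In replicate 3 alone neither motif was more frequent, with GAGAGAG at 8.60% against 8.08% and AACNGGTT at 5.0% against 5.95%.

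The remaining 12 patterns did not pass the threshold. They included CAGGTAG of Zelda (0.80 and 1.05%), AAGGTCA of nuclear receptor monomers (1.40 and 1.69%), TGANTCA of AP-1 (4.40 and 4.81%), CGATA of BEAF-32 (20.6 and 21.0%), CACACACA (7.40 and 6.44%) and TATAAA (23.6 and 26.7%), and their adjusted p ranged from 0.382 to 1 (Fisher's exact tests).

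A search over all 2080 6-mers, strands joined, was headed by 6-mers that also occur within the PRDI-BF1 consensus. At an adjusted p under 0.05, 19 were more frequent at the strongest sites (0.913% of those tested) and 2 less frequent (0.0962%). The first 5 were CGAAAG (33.4 against 18.7%), GAAAGT (42.0 against 26.8%), AAAGTG (42.8 against 29.2%), GAAAGC (24.2 against 14.7%) and AAGTGA (32.8 against 22.1%), with odds ratios from 1.72 to 2.18 and adjusted p from 5.46e-10 to 9.98e-05 (Fisher's exact tests, Benjamini-Hochberg). Of the 8 6-mers that contain GAAAG, 4 were among the 19, beside 0.913% of all those tested. The rest of the 19, AGAGAG and CGGCAG among them, did not contain it. AATGGT (4.0 against 9.09%) and ACATAT (13.2 against 19.5%) were the 2 less frequent ones, and 3 more, AAATAT (31.2 against 39.1%), ATAAAT (26.4 against 33.5%) and AATTCA (13.4 against 18.8%), came next without passing (adjusted p from 0.0510 to 0.117, Fisher's exact tests). The count depended strongly on the replicates: 117 6-mers passed when sites were ranked without replicate 3, 9 without replicate 1 and 3 without replicate 2. These rankings also used mean relative signal in place of the pooled signal. The strong sites were also richer in G and C, and the part of base composition in these counts was not tested.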

How the data were processed

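ChIP-seq peak lists of 3 biological replicates were analysed. The authors deposited them in the narrowPeak layout. Per the deposited text they comprise, on dm6, a reproducible list cut on the irreproducible discovery rate (IDR) and relaxed lists of 30000 peaks per replicate. Column 7 of the deposited lists is the peak caller's signal, and column 9 of the deposited lists is −log10 of a q-value. Aligner, peak caller and signal scaling: not given in the sources used here. The lists carry no read counts, so depth is unknown, and Wilson intervals cover counting of sites alone. The dm3 lists were not used.

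The 5573 IDR peaks overlapping by at least 1 bp were merged to 4990 sites. Replicate signal was the strongest overlapping relaxed peak over the replicate's median site. Neighbouring sites shared such a peak at 66, 50 and 56 sites in replicates 1, 2 and 3, of which 0, 2 and 0 were among the 500. Genes came from Ensembl release 115 (FlyBase 6.54, assembly dm6) with 13986 protein-coding genes, the nearest TSS naming each site, and sequence from RefSeq's copy of that assembly. Positions count from 1, and an intronic summit lies in an intron of any gene, not necessarily the named one. Motifs were searched within 100 bp of the summit and in flanks 500 bp toward higher coordinates. Shares were compared by two-sided Fisher's exact or exact McNemar tests with Benjamini-Hochberg adjustment at 0.05, in Python 3.11.15 with scipy 1.17.1, and the tests were tested on simulated sequences.

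Named genes are those nearest to the 30 strongest sites, up to 3 of the strongest for each of 12 lists with at least 3 strong sites, genes nearest to at least 4, and sites with the largest spread, a missing replicate or a place at the limit. Genes named beyond these rules, as in lists with fewer strong sites, were chosen after their values were seen. The sites and lists were chosen with earlier results of these data known. After the files were read, 21 older symbols of the lists were updated and symbols that did not belong were removed. The site of 1 gene among the 30 is not reported here. Gene lists are given as counts without a test. Alternatives changed the number of sites, the ranking, merging, promoter distance, windows and replicates.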

Additional observations from a re-analysis of the deposited data

How the results depend on the processing

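Of 163 recomputed values, 130 kept their direction and side of the threshold or stayed close to the main value. The promoter odds ratio kept both in all 15 of its alternatives (1.46 to 1.65). The distal intergenic odds ratio was 0.765 with the 250 strongest sites (adjusted p = 0.203), and the distal intronic one 0.829 on replicate 2 alone (adjusted p = 0.0680, Fisher's exact tests). The X odds ratio, past no threshold, turned to 1.04 by mean relative signal, 1.01 without sites at Blimp-1 and Eaf6, and 1.02 and 1.15 on replicates 1 and 3 alone. Without each replicate in turn, with sites ranked on the mean relative signal of the others, it ranged from 0.958 to 1.10. On replicate 3 alone the odds ratio was 1.04 for GTGAAAG, 1.72 for the consensus, 1.07 for GAGAGAG, 0.992 for GAAAG and 0.832 for AACNGGTT, all short of the threshold. Without each replicate in turn, GTGAAAG ranged from 1.28 to 1.76 and GAGAGAG from 1.46 to 1.78. GTGAAAG missed the threshold without replicate 1 or 2 (adjusted p = 0.187 and 0.391), and GAGAGAG without replicate 2 (adjusted p = 0.0710) and, at 1.49, within 50 bp (adjusted p = 0.171, Fisher's exact tests). The consensus in distal against promoter sites turned from 0.785 to 1.02 with the 1000 strongest sites, without passing either time.

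The 21 6-mers called became 35 with the 250 strongest sites and 14 with 1000, 12 within 50 bp and 65 within 200 bp, 61, 182 and 3 on replicates 1, 2 and 3 alone, and from 3 to 117 without each replicate in turn. The share of ecdysone regulator sites, 2.69 times that of all sites, became 3.82 times with 250 sites, 1.82 with 1000 and 1.66 by TSSs within 1000 bp. The causes were not tested. Rankings on 1 replicate alone, and all alternatives for GAAAG, AACNGGTT and the match with at most 1 mismatch, were chosen after seeing the data. No paired analysis was possible because there is 1 group. Depth is unknown, and 1 transgenic line without a control library limits all values.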
